A study of Mus musculus with 45 samples.

Results

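The genes described here are 35 complement system genes of the mouse liver: complement components, their regulators and their receptors, chosen as a list of named genes and found by name among 24946 usable genes of the deposited table. All 35 were present and all were abundant enough to be tested. They were grouped by role into 8 recognition molecules and initiating proteases, 7 components that form or feed the convertases, 7 terminal components, 8 soluble regulators, 3 membrane regulators and 2 receptors.

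Complement is a cascade of plasma proteins, most of them made by hepatocytes, that marks and lyses microbes. Antibody complexes start the classical route through C1, sugars start the lectin route through mannose-binding lectins, ficolins and collectins, and an alternative route with factors B, D and properdin amplifies both. All routes cleave C3 and then C5, and C5b with C6, C7, C8 and C9 builds the membrane attack complex. Plasma activity of the terminal components is known to be higher in male than in female mice.

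RNA was sequenced from liver tissue lysate of wild-type mice, 45 libraries in 12 groups of stage, diet label and sex label. At peak injury, mice had been fed the Lieber-DeCarli liquid control or ethanol diet for 6 weeks. Ethanol-labelled mice of early resolution had 3 days, and those of late resolution 2 weeks, of control diet after 6 weeks of ethanol. The labels give no separate schedule for control-labelled mice of these stages. Groups held 4 libraries, except early ethanol female, late ethanol female and late ethanol male with 3 each, which gave 16 libraries at peak, 15 at early and 14 at late resolution. No source used here gives strain or age, and no label says whether replicates are separate animals, so p-values measure only the spread between these libraries. The deposited values are TPM, a length-corrected share of each library's transcripts that hides sequencing depth, so counting precision is unknown. In bulk tissue, fewer cells of a type and less RNA per cell cannot be told apart.

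Transcripts of the sex chromosomes followed the diet label and not the sex label. Xist, the X-inactivation RNA made from an inactive X chromosome, was at 13.7 to 51.8 TPM in all 21 ethanol-labelled libraries and at most 0.349 TPM in 23 of the 24 control-labelled ones. The Y-linked Eif2s3y was at most 0.0386 TPM in the ethanol-labelled libraries and 7.83 to 12.7 TPM in those 23. The remaining library, late control female 1, had Xist at 39.5 TPM and Eif2s3y at 0. In the other 44 libraries the diet label and the sex-chromosome content cannot be told apart. Had the diet and sex labels been exchanged, each diet label difference below would be one between sexes and each sex label difference one between diets, and the files used here do not settle this. Groups are called by their labels throughout. Late resolution differences were also computed without late control female 1. The summed level of 10 hepatocyte markers was 156800 to 190300 TPM in ethanol-labelled and 128300 to 157700 TPM in control-labelled libraries at peak, 143100 to 196400 against 85190 to 161300 TPM at early, and 183100 to 210600 against 119600 to 188200 TPM at late resolution. Alb was the largest part of these sums, at a mean of 116800 TPM over the 45 libraries. Its median was 138300 TPM in ethanol-labelled and 99300 TPM in control-labelled libraries. These sums were mostly higher in ethanol-labelled libraries, while 1 of the 10 was called higher at each stage and 1, 0 and 3 lower. Beside these counts, 15.0%, 7.61% and 8.5% of all genes were higher at the 3 stages and 20.7%, 9.17% and 12.5% lower. The part of hepatocyte RNA in the members' differences was not tested.

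The terminal components had the widest median difference between diet labels of the 6 roles, so the sequence upstream of those lower at all 3 stages is shown. With it is that of Mbl2, the member that was higher at all stages with the widest difference. Each line gives the 200 bases from 250 to 51 bases before the RefSeq gene start (build GRCm38.p6, which is mm10), read along the gene's strand. Capitals mark 2 motifs searched on both strands, GTTAAT (printed as ATTAAC where it lies on the other strand), a partial site of HNF1 factors, and TTCNNNGAA, bound by STAT factors.
C6, chr15:4726960-4727159, plus strand: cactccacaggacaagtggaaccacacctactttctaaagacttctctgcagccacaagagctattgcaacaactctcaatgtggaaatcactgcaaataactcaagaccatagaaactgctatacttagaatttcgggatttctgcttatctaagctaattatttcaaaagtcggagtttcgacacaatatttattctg
C9, chr15:6445096-6445295, plus strand: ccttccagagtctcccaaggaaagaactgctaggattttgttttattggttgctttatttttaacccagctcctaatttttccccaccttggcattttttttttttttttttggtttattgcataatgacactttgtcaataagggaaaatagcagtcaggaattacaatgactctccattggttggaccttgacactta
C8a, chr4:104876449-104876648, minus strand: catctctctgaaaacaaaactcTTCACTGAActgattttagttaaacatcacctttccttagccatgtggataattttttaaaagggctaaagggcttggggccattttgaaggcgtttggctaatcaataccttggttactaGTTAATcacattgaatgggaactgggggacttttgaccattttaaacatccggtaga
C8b, chr4:104766067-104766266, plus strand: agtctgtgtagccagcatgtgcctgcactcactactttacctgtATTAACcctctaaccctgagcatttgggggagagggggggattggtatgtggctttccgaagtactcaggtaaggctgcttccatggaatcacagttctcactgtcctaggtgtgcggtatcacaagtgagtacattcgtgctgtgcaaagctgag
Hc, chr2:35061463-35061662, minus strand: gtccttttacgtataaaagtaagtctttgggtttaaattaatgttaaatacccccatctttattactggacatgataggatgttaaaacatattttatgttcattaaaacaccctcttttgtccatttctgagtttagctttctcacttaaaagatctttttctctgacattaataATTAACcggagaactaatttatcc
Mbl2, chr19:30232678-30232877, plus strand: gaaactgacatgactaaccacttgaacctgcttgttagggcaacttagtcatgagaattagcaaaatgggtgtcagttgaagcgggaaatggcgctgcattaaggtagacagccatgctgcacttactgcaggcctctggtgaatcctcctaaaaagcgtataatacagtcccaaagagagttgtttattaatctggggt
Upstream sequence was matched for 27 of the 35 members. The GTTAAT motif lay in the window of 8 of these 27, C1ra, C4bp, C7, C8a, C8b, Cfhr2, Hc and Vtn, and in 5.33% of all 32851 RefSeq windows of that length. TTCNNNGAA lay in 4 of the 27, C7, C8a, Colec11 and Cpn2, and in 5.76% of all windows. A match is a description of letters, not a binding site, and the windows of C6 and C9 held neither motif. C7 and C8g, the terminal genes not lower at all 3 stages, are not printed. C7 held both motifs and C8g neither.

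In the liver as a whole, C3 was the most abundant member, at a mean of 4781 TPM over the 45 libraries, followed by Vtn (vitronectin) at 3609, Clu (clusterin) at 1852, Cfb (factor B) at 1328 and Serping1 (C1 inhibitor) at 1250 TPM. The lowest were the receptor genes C3ar1 and C5ar1, at 0.719 and 0.959 TPM, with C7 at 0.855 TPM and Cd55 at 3.44 TPM. Together the 35 members made up 1.57% to 2.43% of the TPM of a library. No member but Cfd was at 0 in any library.

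Differences between labels were tested on log2(TPM + 0.5) after scaling the libraries to a common median of ratios, with limma across 11194 genes and Benjamini-Hochberg adjustment over all of them. A member is called, and is said to be higher or lower, at an adjusted p under 0.05. At peak 21 of the 35 members were called between diet labels, 7 higher and 14 lower in ethanol-labelled libraries, beside 35.7% of all genes tested (15.0% higher and 20.7% lower). At early resolution 17 were called, 4 higher and 13 lower, beside 16.8% of all genes (7.61% higher and 9.17% lower). At late resolution 14 were called, 5 higher and 9 lower, beside 21.0% of all genes (8.5% higher and 12.5% lower). Without late control female 1 the late count was 17, 5 higher and 12 lower, beside 24.3% of all genes. The median difference of the 35 members was -0.16 at peak, -0.22 at early and -0.14 at late resolution, where that of all genes was -0.02, -0.03 and -0.02 on the log2 scale. On TPM as deposited, without scaling, the calls split into 8 higher and 9 lower at peak, 5 and 9 at early and 6 and 6 at late resolution, beside 27.1%, 16.7% and 12.8% of all genes, with the median of all genes shifted to 0.054, 0.126 and 0.052.

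The same 12 members were called in 1 direction at all 3 stages. The share of all genes called in this way was not computed, so the count has no background beside it. C1s1, C4a, Hc, C6, C8a, C8b, C9 and C4bp were lower in ethanol-labelled libraries, and Mbl2, Fcna, Colec11 and Cfp were higher. For C1s1, Hc, C4bp and Colec11 some of these calls ended under other settings or without single libraries, as given with each gene. C1ra, Masp2, Cfd and Cfhr2 were lower at 2 stages. C3, Cfi, Cd55 and C5ar1 were higher and C2, C8g, Clu and Cd59a lower at 1 stage. The other 11 members, Mbl1, Masp1, C4b, Cfb, C7, Serping1, Vtn, Cpn1, Cpn2, Cr1l and C3ar1, were called at none.

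**Figure D1:**
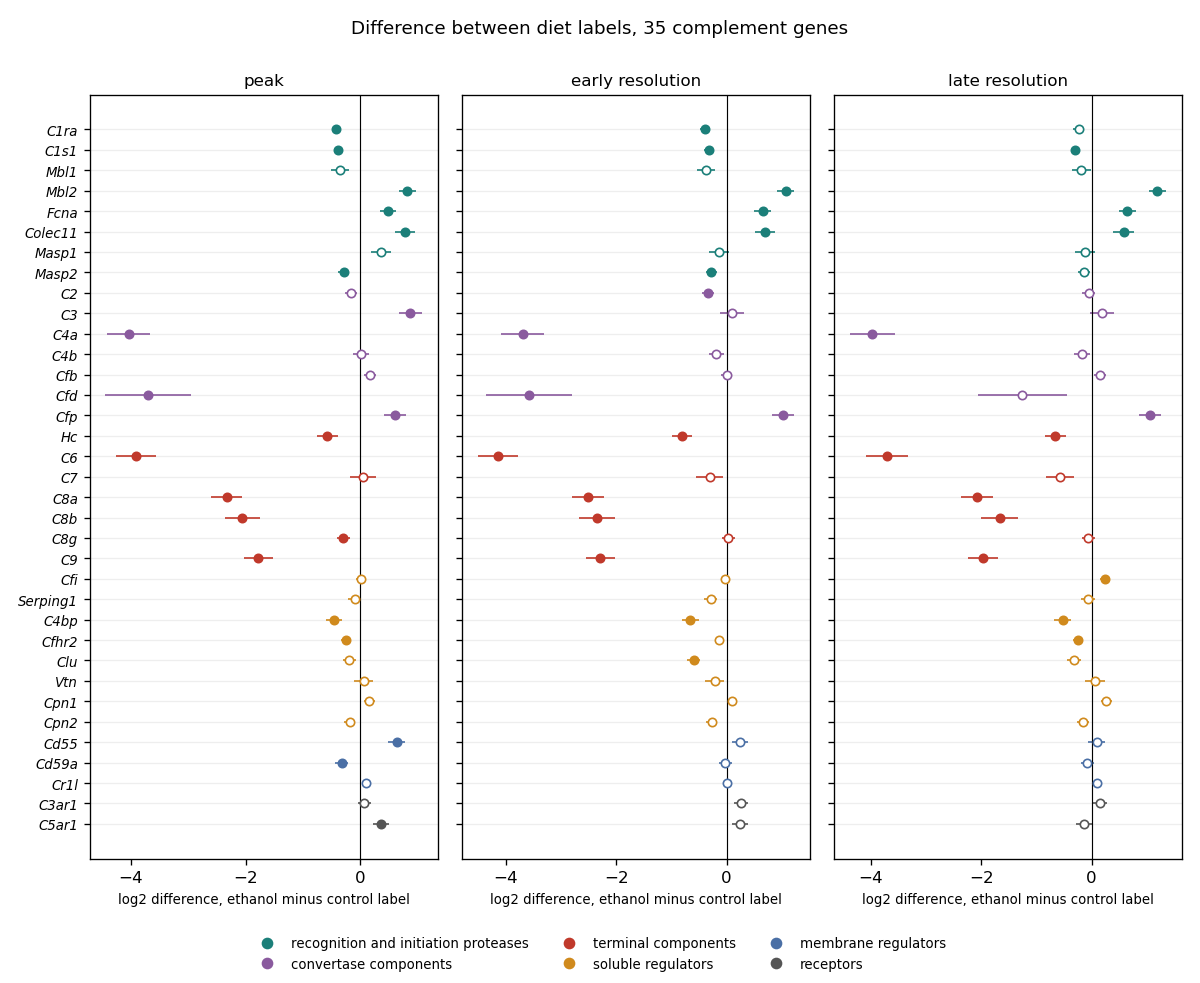
Difference between diet labels (ethanol minus control, log2 scale, x axis) for each of the 35 members (y axis, ordered by role) at peak, early and late resolution. Circles are limma estimates, filled where the adjusted p is under 0.05, bars are standard errors, colours are roles, and each panel has its own x scale. C4a, C6, C8a, C8b and C9 sit far to the left at every stage, between -1.66 and -4.15.

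The terminal components were the role with the widest median difference, although single members of other roles, C4a and Cfd, differed as widely. Of the 7 members 6 were lower at peak and 5 at each resolution stage. The share of all genes lower was 20.7% at peak, 9.17% at early and 12.5% at late resolution. The median difference of the 7 members was -1.78 at peak, -2.29 at early and -1.66 at late resolution. Their summed level was 813 to 1197 TPM in the ethanol-labelled and 1648 to 2546 TPM in the control-labelled libraries at peak, 930.2 to 1302 against 1934 to 3496 TPM at early, and 990.1 to 1161 against 1068 to 3065 TPM at late resolution. The sums did not overlap at peak and early resolution. At late resolution they overlapped through 1 control-labelled library.

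C6 binds C5b and continues the assembly of the attack complex. At peak its level was 78.7, 129, 139 and 45.2 TPM in the control female, 183, 168, 232 and 179 TPM in the control male, 8.29, 11.4, 9.81 and 8.45 TPM in the ethanol female and 6.91, 9.08, 10.2 and 6.61 TPM in the ethanol male libraries. The diet labels did not overlap: the highest ethanol-labelled library was below the lowest control-labelled one in both sex labels. C6 was 15.1-fold lower in ethanol-labelled libraries on the log2(value + 0.5) scale (log2 difference -3.91 ± 0.35, SE, limma adjusted p = 7e-11). At early resolution the 8 control-labelled libraries ran from 138 to 273 TPM (median 184) and the 7 ethanol-labelled ones from 9.37 to 15.2 TPM (median 11.1), a log2 difference of -4.15 ± 0.36 (limma adjusted p = 7.3e-11).

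At late resolution C6 was at 13.4, 284, 101 and 188 TPM in the control female, 111, 227, 201 and 263 TPM in the control male, 8.48, 8.17 and 9.09 TPM in the ethanol female and 13.8, 9.32 and 14.8 TPM in the ethanol male libraries. Late control female 1, at 13.4 TPM, lay among the ethanol-labelled libraries, and the other 7 control-labelled libraries lay above all of them. The log2 difference was -3.71 ± 0.38 (limma adjusted p = 3.1e-09) with that library and -4.21 ± 0.22 (limma adjusted p = 1.6e-17) without it.

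C8 is a trimer of the alpha, beta and gamma chains. C8a, the alpha chain, was at 231.8 to 630.5 TPM in the control-labelled libraries at peak (median 455) and at 75.0 to 107 TPM in the ethanol-labelled ones (median 90.7), with no overlap. Its log2 difference was -2.33 ± 0.27 at peak, -2.51 ± 0.28 at early and -2.07 ± 0.29 at late resolution (limma adjusted p = 2.8e-08, 2.3e-08 and 3e-06). C8b, the beta chain, was at 151 to 423 TPM in the control-labelled libraries at peak (median 355) against 69.7 to 111 TPM in the ethanol-labelled ones (median 77.5). C8b differed by -2.05 ± 0.31 at peak, -2.35 ± 0.32 at early and -1.66 ± 0.33 at late resolution (limma adjusted p = 2.7e-06, 9.6e-07 and 0.00047). C8g, the gamma chain and a lipocalin, was among the least different: its medians were 557 TPM in control-labelled and 482 TPM in ethanol-labelled libraries at peak, a log2 difference of -0.29 ± 0.11 (limma adjusted p = 0.036). At early and late resolution C8g was not called (0.03 ± 0.12 and -0.06 ± 0.12), and the peak call was lost on values as deposited (limma adjusted p = 0.17) and without any 1 of 7 libraries, peak control female 4, peak ethanol female 1 or 2, peak control male 1 or 2, or peak ethanol male 3 or 4 (up to 0.13).

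C9 polymerises into the pore of the attack complex. At peak C9 was at 268, 418, 366 and 203 TPM in the control female, 341, 300.3, 415 and 263 TPM in the control male, 161, 182, 93.1 and 117 TPM in the ethanol female and 64.7, 74.8, 82.0 and 60.2 TPM in the ethanol male libraries. All control-labelled libraries were above all ethanol-labelled ones. C9 differed by -1.78 ± 0.26 at peak, -2.29 ± 0.27 at early and -1.96 ± 0.28 at late resolution (limma adjusted p = 1.6e-06, 5.1e-08 and 2.8e-06). Late control female 1 had C9 at 67.8 TPM and C8a at 93.2 TPM, against at least 288 TPM for C8a and 291 TPM for C9 in the other 7 control-labelled libraries of that stage. Without it the late differences were -2.40 ± 0.22 for C8a, -2.03 ± 0.25 for C8b and -2.31 ± 0.19 for C9.

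Hc, which encodes C5, the protein whose cleavage begins the terminal pathway, differed less. Its level at peak was 149 to 429.5 TPM in control-labelled (median 268) and 141 to 285 TPM in ethanol-labelled libraries (median 185), and the labels overlapped. The log2 difference was -0.58 ± 0.18 at peak, -0.81 ± 0.19 at early and -0.66 ± 0.19 at late resolution (limma adjusted p = 0.011, 0.0025 and 0.015). On values as deposited the peak and late calls of Hc were lost (limma adjusted p = 0.056 and 0.064), and the late call also without late control female 4 (0.05). Without late control female 1 the late difference was -0.75 ± 0.19. C7, which follows C6 into the complex, ran from 0.177 to 2.43 TPM over all 45 libraries and was not called at any stage. It was lower at late resolution without late control female 1 (-0.70 ± 0.25, limma adjusted p = 0.033) or without late ethanol male 1 (-0.86 ± 0.23, limma adjusted p = 0.01).

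Positions of the terminal genes are given in mm10 from GENCODE M21. C8b (chr4:104766317-104804548) and C8a (chr4:104815679-104876398) are neighbours on opposite strands, and both were lower. C6 (chr15:4727175-4814967) lies near C7 (chr15:4988762-5063740), which was not called, and C9 (chr15:6445327-6498751) is further along the same chromosome. Hc lies at chr2:34983331-35061438 and C8g at chr2:25498651-25501719.

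**Figure D2:**
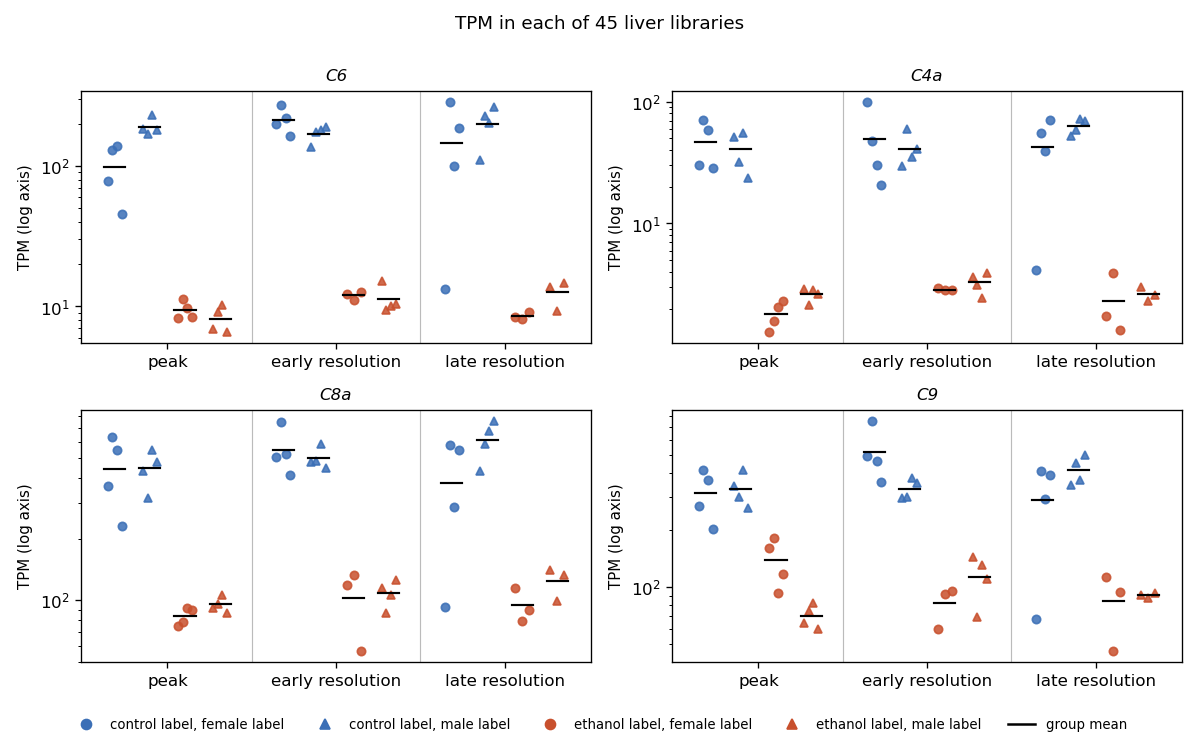
Levels of C6, C4a, C8a and C9 (TPM, log axis) in each of the 45 libraries, by stage, diet label and sex label (x axis); each point is 1 library and each black bar a group mean. Ethanol-labelled libraries lie below control-labelled ones at every stage, except beside late control female 1, which has C6 at 13.4, C8a at 93.2, C9 at 67.8 and C4a at 4.17 TPM.

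Among the convertase components, C4a stood apart from C4b. C4b encodes mouse C4, and C4a encodes the closely related sex-limited protein, named for its presence in males of some strains. C4a was at 30.0, 71.4, 58.1 and 28.7 TPM in the control female, 51.3, 32.3, 55.0 and 23.6 TPM in the control male, 1.29, 1.58, 2.06 and 2.29 TPM in the ethanol female and 2.92, 2.16, 2.82 and 2.63 TPM in the ethanol male libraries at peak. The highest ethanol-labelled library was below the lowest control-labelled one. The difference was -4.04 ± 0.38 at peak, -3.70 ± 0.39 at early and -3.97 ± 0.41 at late resolution (limma adjusted p = 1.9e-10, 5.5e-09 and 3.7e-09), and -4.45 ± 0.29 at late resolution without late control female 1, where C4a was at 4.17 TPM.

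C4b, the paralog, had medians of 643 TPM in control-labelled and 668 TPM in ethanol-labelled libraries at peak, and was not called at any stage (0.01 ± 0.14, -0.19 ± 0.14 and -0.18 ± 0.15, the last -0.17 ± 0.15 without late control female 1). C4a (chr17:34809092-34823464) and C4b (chr17:34728380-34743882) are near-identical copies, so reads could be split between them and the level of C4a, which GENCODE lists as a processed transcript, is uncertain. Cfb (chr17:34856374-34862518) and C2 (chr17:34862604-34898265) lie next to them. Cfb, the serine protease of the alternative convertase, had medians of 1180 TPM in control-labelled and 1443 TPM in ethanol-labelled libraries at peak and was not called at any stage (0.17 ± 0.10, 0.00 ± 0.10 and 0.14 ± 0.11, the last 0.15 ± 0.11 without late control female 1). C2, its counterpart in the classical and lectin routes, was lower at early resolution alone (-0.34 ± 0.11, limma adjusted p = 0.032), a call lost on values as deposited (limma adjusted p = 0.50), after quantile normalization (0.06) and without early control female 2 or 3, early ethanol female 1 or 2 or early control male 3 (up to 0.077). Without peak control male 4, C2 was lower at peak too (-0.27, limma adjusted p = 0.025).

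C3, the component on which all routes converge, was higher in ethanol-labelled libraries at peak. There it was at 3894, 4287, 3567 and 2146 TPM in the control female, 3445, 2236, 4015 and 4607 TPM in the control male, 7008, 6911, 7880 and 5668 TPM in the ethanol female and 6174, 7551, 6566 and 5533 TPM in the ethanol male libraries. On the TPM scale the labels did not overlap, while the scaled values did. The scaled difference was 0.87 ± 0.20 (limma adjusted p = 0.0011), or 1.83-fold. At early resolution C3 had medians of 4001 TPM in control-labelled and 5392 TPM in ethanol-labelled libraries with overlap, and it was not called there (0.10 ± 0.21, limma adjusted p = 0.80) or at late resolution (0.19 ± 0.22, limma adjusted p = 0.57, and 0.16 ± 0.23 without late control female 1). The change of the C3 difference from peak was -0.77 ± 0.30 at early and -0.69 ± 0.30 at late resolution, and neither change passed (limma adjusted p = 0.17 and 0.12). Without early ethanol female 1 the change at early resolution was called, lower.

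Cfd, factor D, cleaves factor B and is best known as the adipocyte product adipsin. At peak Cfd was at 4.01, 5.58, 4.32 and 10.1 TPM in the control female, 12.4, 70.0, 10.9 and 39.6 TPM in the control male, 15.0, 0.0607, 0 and 0.108 TPM in the ethanol female and 0, 0.0749, 2.77 and 0.0955 TPM in the ethanol male libraries. In 6 of the 8 ethanol-labelled libraries it was at most 0.108 TPM, and 1 of the others, peak ethanol female 1, lay within the control-labelled range. The log2 difference was -3.69 ± 0.75 at peak and -3.58 ± 0.78 at early resolution (limma adjusted p = 0.00021 and 0.0012).

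At late resolution Cfd was not called (-1.26 ± 0.81, limma adjusted p = 0.27). There late ethanol male 1 was at 60.9 TPM while the other 5 ethanol-labelled libraries ran from 0.0631 to 2.64 TPM, and without that library Cfd was lower (-2.35 ± 0.70, limma adjusted p = 0.021). Without late control female 1 the late difference was -1.68 ± 0.80 and not called (limma adjusted p = 0.12). Adipoq, the defining adipocyte gene, was at 23.3 TPM in late ethanol male 1, 2.40 TPM in peak ethanol female 1, 1.28 TPM in late ethanol female 3, 0.798 TPM in early ethanol male 3 and 0.729 TPM in peak ethanol male 3, the ethanol-labelled libraries with the highest Cfd. It was at 0 in 24 of the 45 libraries, and in control-labelled ones, where Cfd reached 70.0 TPM, it was at most 0.269 TPM. Of the 6 adipocyte markers 3 were tested: 1 was higher at peak and 1 lower at each resolution stage. Of all genes, 15.0% were higher at peak, and 9.17% at early and 12.5% at late resolution were lower. The sum of the 6 ran from 15.6 to 82.3 TPM in ethanol-labelled and 19.6 to 86.7 TPM in control-labelled libraries at peak. Most of that sum was Cidec and Fabp4, at means of 22.6 and 19.5 TPM over the 45 libraries, where Adipoq had a mean of 0.673 TPM. The part of adipocyte RNA in the Cfd levels was not tested.

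Cfp, properdin, which stabilises the alternative convertase and is made mostly by leukocytes, was higher at all 3 stages. Its level was 10.6 to 14.4 TPM in control-labelled libraries at peak (median 11.98) and 11.8 to 27.5 TPM in ethanol-labelled ones (median 20.6). At early resolution the range was 5.73 to 17.9 TPM against 18.9 to 38.1 TPM, with no overlap on the TPM scale, while the scaled values overlapped. Cfp differed by 0.60 ± 0.19, 1.02 ± 0.20 and 1.05 ± 0.20 at the 3 stages in turn (limma adjusted p = 0.012, 0.0003 and 0.00035). Late control female 1, at 48.9 TPM, was above every other library of its stage, where the other 7 control-labelled libraries were at 9.49 to 14.5 TPM. Without it the late difference was 1.29 ± 0.15.

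Kupffer cell markers are given beside Cfp and the ficolin gene Fcna, which macrophages express. Of 9 tested, 0 were called between diet labels at peak, 3 were higher at early and 5 at late resolution. Their sum was 183 to 514 TPM in ethanol-labelled and 187 to 397 TPM in control-labelled libraries at peak, 341 to 588 against 130.4 to 464 TPM at early, and 384 to 657 against 152 to 674 TPM at late resolution. Clec4f, a defining Kupffer cell gene, was at 43.0 TPM or more in all libraries and at 187.5 TPM in late control female 1, the highest of its stage. At peak, 8 of 8 endothelial and 7 of 8 stellate cell markers were higher, and their sums ran from 80.3 to 267 and 73.0 to 251 TPM in ethanol-labelled against 51.3 to 201 and 32.2 to 106 TPM in control-labelled libraries. Des, a stellate cell marker, reached 109 TPM in an ethanol-labelled library, against a median of 1.46 TPM over all 21 ethanol-labelled ones. At early resolution 0 of 8 endothelial and 1 of 8 stellate cell markers were higher, with sums of 129 to 216 against 103.5 to 166.5 TPM and, without overlap, 108 to 148 against 54.4 to 104 TPM. At late resolution 0 of either list were called, with sums of 119 to 201 against 77.4 to 149.7 TPM and 86.4 to 136 against 53.7 to 110.2 TPM. Beside these counts, the shares of all genes called were 35.7% at peak (15.0% higher), 16.8% at early (7.61% higher) and 21.0% at late resolution (8.5% higher). The part of these cells in the members' differences was not tested.

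Among the recognition molecules and initiating proteases, 3 members were higher at every stage. Mbl2, a mannose-binding lectin of hepatocytes, was at 479.5, 423.5, 454 and 699 TPM in the control female, 454, 638, 503 and 403 TPM in the control male, 1077, 1296, 662 and 1180 TPM in the ethanol female and 837, 839, 766 and 961 TPM in the ethanol male libraries at peak. One control female library, at 699 TPM, was above 1 ethanol female library. At early resolution the labels ran from 339.8 to 629 and from 820.5 to 1394 TPM, and at late resolution from 242 to 835 and from 986 to 1615 TPM, with no overlap at either stage. Mbl2 differed by 0.82 ± 0.15, 1.07 ± 0.15 and 1.19 ± 0.16 (limma adjusted p = 4.3e-05, 2.1e-06 and 8.6e-07), or 1.76-, 2.1- and 2.28-fold, and by 1.28 ± 0.15 at late resolution without late control female 1.

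Colec11, a collectin that binds sugars and the MASP proteases, was at 19.8 to 80.1 TPM in control-labelled (median 40.3) and 43.3 to 104 TPM in ethanol-labelled libraries (median 82.5) at peak. It differed by 0.77 ± 0.17, 0.69 ± 0.18 and 0.58 ± 0.19 at the 3 stages (limma adjusted p = 0.00072, 0.0068 and 0.027). The late call was lost without late ethanol female 2 (limma adjusted p = 0.087), late control male 4 (0.069), late ethanol male 2 (0.064) or late ethanol male 3 (0.057), and without late control female 1 it held (0.61 ± 0.20). Fcna, ficolin A, a lectin of Kupffer cells and other macrophages, had medians of 36.4 TPM in control-labelled and 64.7 TPM in ethanol-labelled libraries at peak, and its ranges overlapped at every stage. Fcna differed by 0.48 ± 0.14, 0.65 ± 0.15 and 0.64 ± 0.16 (limma adjusted p = 0.0088, 0.0024 and 0.0036), and by 0.72 ± 0.16 at late resolution without late control female 1. Mbl1, the other mannose-binding lectin, was not called at any stage with all libraries (-0.36 ± 0.16, -0.37 ± 0.16 and -0.18 ± 0.17). It was lower at peak without peak ethanol female 3 (limma adjusted p = 0.031) and at early resolution without early ethanol female 1 (0.039).

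**Figure D3:**
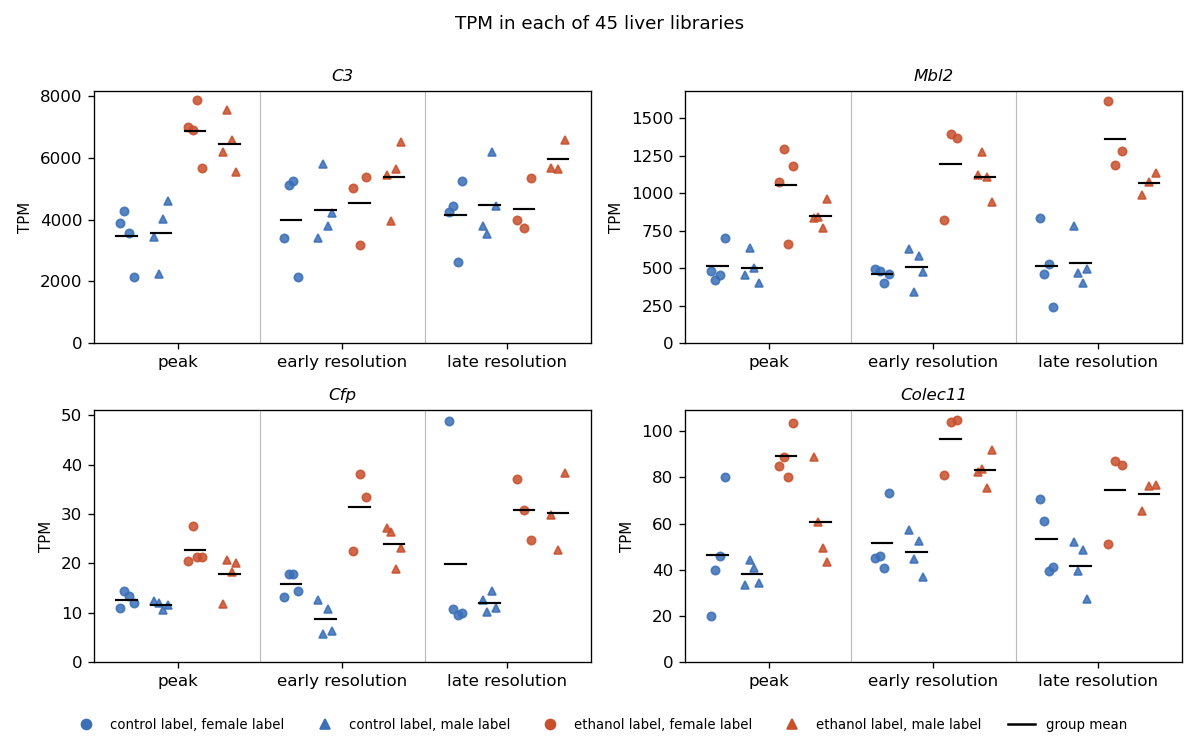
Levels of C3, Mbl2, Cfp and Colec11 (TPM, linear axis) in each of the 45 libraries, by stage, diet label and sex label (x axis); each point is 1 library and each black bar a group mean. Mbl2 separates the diet labels at early and late resolution, C3 lies higher in ethanol-labelled libraries at peak, and the single high Cfp value among late control-labelled libraries, 48.9 TPM, is late control female 1.

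The proteases of the classical and lectin routes were lower where they were called. C1s1, the C1s protease, had medians of 459 TPM in control-labelled and 357 TPM in ethanol-labelled libraries at peak and ranges that overlapped on the TPM scale at every stage. It differed by -0.39 ± 0.07, -0.33 ± 0.07 and -0.30 ± 0.08 (limma adjusted p = 5.9e-05, 0.0021 and 0.0054), and the calls at early and late resolution were lost on values as deposited (limma adjusted p = 0.41 and 0.21). Without late control female 1 the late difference of C1s1 was -0.35 ± 0.08. C1ra, the C1r protease, was lower at peak (-0.42 ± 0.09) and at early resolution (-0.39 ± 0.09, a call lost on values as deposited, limma adjusted p = 0.15) and did not pass at late resolution (-0.24 ± 0.09, limma adjusted p = 0.059), where it was called without late control female 1 (-0.32 ± 0.08, limma adjusted p = 0.0033), late ethanol female 1 (0.037) or late control male 1 (0.049). Masp2, which cleaves C4 and C2, was lower at peak (-0.29 ± 0.09) and at early resolution (-0.28 ± 0.10), and both calls were lost on values as deposited (limma adjusted p = 0.10 and 0.56). The early call of Masp2 was also lost on leaving out any 1 of 12 of the 15 libraries (up to 0.12), all but early control female 2, early control female 3 and early control male 1. Masp1 was not called between diet labels with all libraries, and was higher at peak without peak control male 4 (0.47, limma adjusted p = 0.029).

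The soluble regulators differed by less than C6, C8a, C8b and C9 at every stage. C4bp, the C4b-binding protein that limits the classical and lectin convertases, was lower at all 3 stages. It ran from 388.5 to 749 TPM in control-labelled (median 645) and from 239 to 593 TPM in ethanol-labelled libraries (median 518.5) at peak, with overlap, and differed by -0.46 ± 0.15, -0.66 ± 0.15 and -0.53 ± 0.16 (limma adjusted p = 0.013, 0.0022 and 0.017). The peak call of C4bp was lost without peak ethanol female 1 (limma adjusted p = 0.05) and the late call without late control female 4 (0.055), and without late control female 1 the late difference was -0.60 ± 0.16. Cfhr2, from a family of similar genes whose reads may be shared, was lower at peak (-0.25 ± 0.08) and late resolution (-0.25 ± 0.09), and both calls were lost on values as deposited (limma adjusted p = 0.26 and 0.36). Its late call held without late control female 1 (-0.30 ± 0.09) and 2 of the other 13 libraries, late control female 3 and late ethanol female 3, and was lost without any of the remaining 11 (up to 0.13). Clu, clusterin, which holds terminal complexes in solution, was lower at early resolution (-0.60 ± 0.12, limma adjusted p = 0.0004), where it ran from 1368 to 1705 TPM in ethanol-labelled and 1769 to 2907 TPM in control-labelled libraries. At late resolution Clu missed the threshold with all libraries (-0.32 ± 0.12, limma adjusted p = 0.055) and was lower without late control female 1 (-0.41 ± 0.11, limma adjusted p = 0.0092), late ethanol female 1 (0.023) or late control male 1 (0.039). Cfi, the protease factor I that inactivates C3b and C4b, was higher at late resolution (0.23 ± 0.09, limma adjusted p = 0.048), a call lost without late control female 1 (limma adjusted p = 0.069), and in all without any 1 of 11 of the 14 libraries (up to 0.16), all but late control female 4, late ethanol female 3 and late control male 4. Serping1, Vtn, Cpn1 and Cpn2, the last pair being the subunits of carboxypeptidase N, were not called between diet labels with all libraries. Cpn1 was higher at late resolution without late control female 1 (0.28 ± 0.10, limma adjusted p = 0.049), late control female 3 (0.017), late ethanol female 3 (0.0051) or late ethanol male 1 (0.046). Cpn2 was lower at peak without peak control female 4 (limma adjusted p = 0.04) and at early resolution without early control female 4 (0.024), early ethanol female 1 (0.049) or early ethanol female 3 (0.03), and Serping1 at early resolution without early control female 4 (0.02).

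Of the membrane regulators, Cd55, the decay-accelerating factor, was higher at peak (0.63 ± 0.14, limma adjusted p = 0.00072), and Cd59a, which blocks C9 insertion, was lower at peak (-0.32 ± 0.11, limma adjusted p = 0.022), a call lost on values as deposited (limma adjusted p = 0.26), after quantile normalization (0.057) and without peak control female 4, peak ethanol female 3 or peak control male 2 (up to 0.064). Cr1l, the rodent convertase inhibitor Crry, was not called (0.09 ± 0.05 at peak). Of the receptors, C5ar1 was higher at peak (0.36 ± 0.13, limma adjusted p = 0.034), a call lost after quantile normalization (0.065) and without peak control female 1, peak ethanol female 3, peak control male 3 or 4 or peak ethanol male 3 (up to 0.1). C3ar1 was not called (0.07 ± 0.12), and both receptors were at levels of at most 1.59 TPM. None of these 5 was called between diet labels at a resolution stage.

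Counting members whose scaled values did not overlap at all between the diet labels gave 6 at peak, all lower (C1s1, C4a, C6, C8a, C8b and C9), beside 4.1% of all genes. It gave 10 at early resolution, Mbl2 higher and C1ra, C1s1, C4a, C6, C8a, C8b, C9, Clu and Hc lower, beside 3.17% of all genes. At late resolution it gave only Mbl2, beside 1.05% of all genes. Without late control female 1 it gave 8, Cfp and Mbl2 higher and C1s1, C4a, C6, C8a, C8b and C9 lower, beside 5.77% of all genes.

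The diet label difference was next taken within each sex label. At peak 8 members were called in female-labelled libraries (2 higher and 6 lower, beside 7.93% of all genes, 3.14% higher and 4.79% lower) and 17 in male-labelled ones (5 higher and 12 lower, beside 33.3%, 14.7% higher and 18.6% lower). At early resolution 11 were called in each (1 higher and 10 lower in female-labelled, beside 5.2%, 1.96% higher and 3.24% lower, and 3 higher and 8 lower in male-labelled, beside 8.4%, 4.77% higher and 3.63% lower). At late resolution 5 were called in female-labelled (1 higher and 4 lower, beside 3.88%, 1.41% higher and 2.47% lower) and 11 in male-labelled libraries (4 higher and 7 lower, beside 12.4%, 5.6% higher and 6.77% lower). The late female-labelled count includes late control female 1, which lay among the ethanol-labelled libraries for C6. That count is not given here without it, so the late counts of the sex labels are not to be compared. C6 differed by -3.38 ± 0.49 in female-labelled and -4.45 ± 0.49 in male-labelled libraries at peak, and C4a by -4.43 ± 0.53 and -3.64 ± 0.53. Mbl2 differed by 0.81 ± 0.21 and 0.82 ± 0.21.

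The test of the difference between the sex labels (the interaction) called 0 members at each stage with limma, beside 0.429% of all genes at peak, 0.0% at early and 0.0715% at late resolution. At an unadjusted p under 0.05 there were 1, 3 and 3 members. With the stage's libraries alone Cfd was called at early resolution. That does not show the effects to be alike: the interaction at peak was 1.07 ± 0.70 for C6 and 0.79 ± 0.51 for C9. The change of the diet label difference from peak called 0 members at early resolution, beside 0.179% of all genes, and 0 at late resolution, beside 12.1%, with 2 and 4 members at an unadjusted p under 0.05. Leaving out 1 library gave at most 1 call for the early change, C3 lower without early ethanol female 1, beside 10.6% of all genes. For the late change it gave Cfd higher without peak ethanol female 1 (beside 12.7% of all genes) and Cfp higher without late control female 1 (13.7%). It gave Cd55 lower without peak control male 4 (18.9%) or without peak ethanol male 1 (6.68%). C7 and Cd55 were lower without late ethanol male 1 (10.2%).

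Between sex labels at peak, 9 members were called, 3 higher and 6 lower in female-labelled libraries, beside 31.7% of all genes (15.4% higher and 16.3% lower). The direction of these calls rested on scaling: on values as deposited, where the median of all genes moved to 0.288, 14 were called, 13 higher and 1 lower, beside 51% of all genes, and the estimates of Cpn1 and Cr1l changed sign. After quantile normalization 5 were called, 4 higher and 1 lower, beside 29.8% of all genes. C4bp was lower, and Cd55, Fcna and Cd59a were higher, in each of the 3 analyses.

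Scaled C4bp levels ran from 196 to 612 in the 8 female-labelled (median 462) and from 635 to 915 in the 8 male-labelled libraries (median 778) at peak, with no overlap, beside 1.41% of all genes without overlap. Its difference was -0.83 ± 0.15 (limma adjusted p = 9e-05). Vtn (-0.52 ± 0.17), Masp1 (-0.45 ± 0.17), C4b (-0.43 ± 0.14), Cpn1 (-0.32 ± 0.09) and Cr1l (-0.23 ± 0.05) were lower after scaling, and Cd55 (0.49 ± 0.14), Fcna (0.43 ± 0.14) and Cd59a (0.39 ± 0.11) were higher. The call of Fcna was lost without peak control female 4 (limma adjusted p = 0.066) or peak ethanol male 4 (0.053), and that of Masp1 without any 1 of 8 libraries, peak control female 4, peak ethanol female 1 or 2, peak control male 3 or 4 or peak ethanol male 1, 2 or 3 (up to 0.13). After scaling and with all libraries, 0 of the 7 terminal components were called between sex labels at any stage by limma, and C6 at peak had the lowest p (-0.77 ± 0.35, unadjusted p = 0.0326, limma adjusted p = 0.085). Without late control female 4, C8a and Hc were lower in female-labelled libraries at late resolution. In the same comparison at peak 6 of 6 neutrophil markers tested were lower in female-labelled libraries (median -1.89, sums of 5.03 to 69.7 against 30.9 to 157 TPM). There 5 of 10 hepatocyte markers were lower and 4 of 8 endothelial markers higher, beside 16.3% of all genes lower and 15.4% higher. The part of these cell types in the members' differences was not tested.

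Within a diet label the sex label difference called few members. In control-labelled libraries these were Cd55 at peak (0.81 ± 0.20, higher, beside 3.08% of all genes, 1.75% higher and 1.33% lower), C2 at early resolution (0.65 ± 0.15, higher, beside 0.893%, 0.545% higher) and Cfhr2 at late resolution (-0.40 ± 0.12, lower, beside 4.35%, 2.98% lower). In ethanol-labelled libraries 5 were called at peak, beside 31.6% of all genes: C4bp (-1.02 ± 0.21), Vtn (-0.65 ± 0.23), Cpn1 (-0.40 ± 0.13) and Cr1l (-0.29 ± 0.07) lower and Cd59a (0.53 ± 0.16) higher. At early and late resolution limma called 0 in ethanol-labelled libraries, beside 0.268% and 0.759% of all genes, with 1 and 3 members at an unadjusted p under 0.05.

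**Figure D4:**
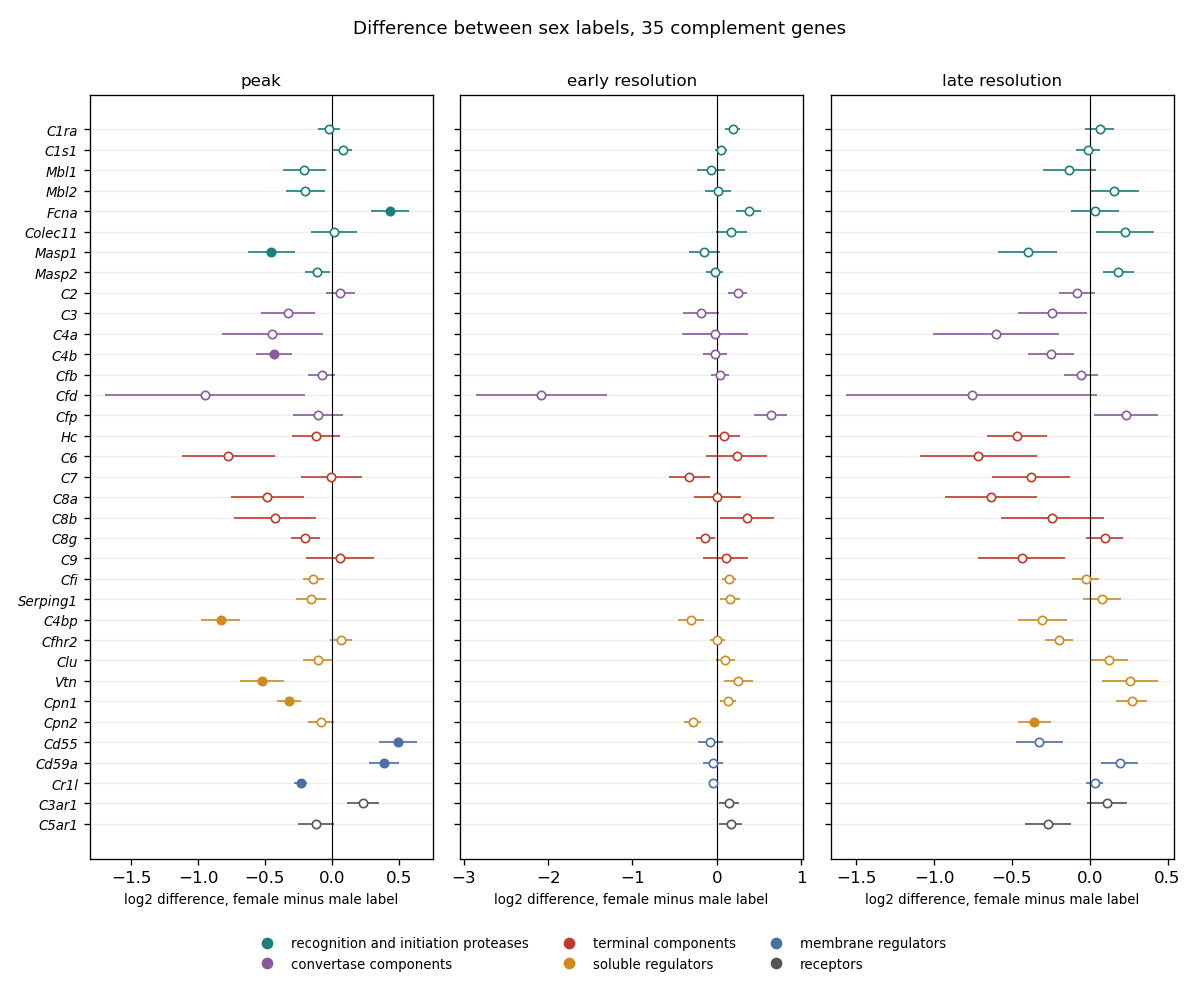
Difference between sex labels (female minus male, log2 scale after scaling, x axis) for each of the 35 members (y axis, ordered by role) at peak, early and late resolution. Circles are limma estimates, filled where the adjusted p is under 0.05, bars are standard errors, colours are roles, and each panel has its own x scale. Filled circles number 9 at peak, 0 at early and 1 at late resolution, and the peak directions rest on scaling.

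At early resolution 0 members were called between sex labels with limma, beside 1.86% of all genes (0.867% higher and 0.992% lower) and with 7 members at an unadjusted p under 0.05. With the stage's libraries alone Cfd was lower, beside 0.669% of all genes. Leaving out early ethanol male 2 called 2, Cfp higher and Cpn2 lower, beside 5.49%. At late resolution Cpn2 alone was lower (-0.36 with an adjusted p of 0.03 by limma), beside 9.65% of all genes (3.05% higher and 6.6% lower). The call of Cpn2 was lost without late control female 1, where 0 members were called, beside 5.26% of all genes. It was also lost without late control female 3, late ethanol female 1 or 2, or late control male 3 or 4. The same held without late ethanol male 2 or 3. Leaving out late control female 4 called 6 members, beside 19.5% of all genes. Without late ethanol female 3 there were 3, beside 21.7%, and without late control female 2 there were 2, beside 10.4%.

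The sex label difference itself changed between stages for a few members. From peak to early resolution it rose for Vtn (0.78 ± 0.24, limma adjusted p = 0.024) and Cpn1 (0.46 ± 0.13, limma adjusted p = 0.017), beside 16.5% of all genes. From peak to late resolution it rose for Vtn (0.78 ± 0.24), Cpn1 (0.59 ± 0.14) and Cr1l (0.26 ± 0.07) and fell for Cd55 (-0.82 ± 0.21), beside 20.3% of all genes (limma adjusted p = 0.022, 0.0037, 0.013 and 0.0075). Scaled Vtn medians were 3147 in female-labelled and 4227 in male-labelled libraries at peak, 4028 and 2906 at early and 3518 and 2984 at late resolution. The count at early resolution became 5 without peak ethanol female 3, beside 22.6% of all genes. It became 1 (Cd55) without early ethanol female 1, beside 9.02%. It became 4 without any 1 of peak control male 3 or 4, peak ethanol male 2 or early control female 4. The same count came without early ethanol female 2 or 3 or early control male 2. The shares of all genes beside these counts of 4 ran from 14.8% to 25.8%. On values as deposited 6 changes were called at early resolution, beside 31.9% of all genes. Vtn was higher, C1s1, Cd55, Cd59a, Cfhr2 and Cpn2 were lower, and Cpn1 was not called. At late resolution there were 11, 1 higher and 10 lower, beside 36.5% of all genes. Of all genes called there as deposited, 7.17% and 5.19% were higher.

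Other genes of the system, taken from lists of initiators, regulators and receptors outside the 35, gave the wider setting. Their late resolution differences include late control female 1. Of 7 initiators tested, 2 were higher and 1 lower at peak, 3 higher and 1 lower at early, and 3 higher and 0 lower at late resolution. Of all genes, 15.0% were higher and 20.7% lower at peak, 7.61% and 9.17% at early, and 8.5% and 12.5% at late resolution. C1qa, C1qb and C1qc, the macrophage-made chains of C1q, were higher at early (0.68 ± 0.16, 0.67 ± 0.16 and 0.69 ± 0.15) and late resolution (0.77 ± 0.16, 0.79 ± 0.17 and 0.71 ± 0.16), and C1qc alone of them at peak (0.41 ± 0.15). Colec10, a partner of Colec11 also used as a stellate cell marker, was higher at peak (0.72 ± 0.19). C1rl, a C1r-like protease, was lower at peak (-0.70 ± 0.08) and early resolution (-0.26 ± 0.08).

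Among the other regulators, Susd4, a membrane inhibitor of complement, was at 10.2 to 28.7 TPM in control-labelled and 0.495 to 1.85 TPM in ethanol-labelled libraries at peak, and it differed by -3.68 ± 0.33, -3.67 ± 0.35 and -3.31 ± 0.36 at the 3 stages (limma adjusted p = 1.2e-10, 4.4e-10 and 1.7e-08). Late control female 1 held the lowest control-labelled value of Susd4 at late resolution, 0.967 TPM.

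Of 6 other receptors tested, 4 were higher at peak, 2 at early and 3 at late resolution, and 0 were lower. The shares of all genes higher were 15.0%, 7.61% and 8.5% at the 3 stages, and those lower 20.7%, 9.17% and 12.5%. Cd93 (1.08 ± 0.17), Itgax (0.69 ± 0.16), Itgb2 (0.61 ± 0.16) and Itgam (0.42 ± 0.14), the last 3 being chains of complement receptors 3 and 4, were higher at peak. Vsig4, the C3b receptor of Kupffer cells, was higher at early (0.75 ± 0.19) and late resolution (0.76 ± 0.20). Between sex labels at peak Apcs (serum amyloid P) was lower in female-labelled libraries (-2.62 ± 0.53), as were Cpb2 (-0.95 ± 0.22), Cd93 (-0.52 ± 0.17), Itgam (-0.37 ± 0.14) and C1rl (-0.32 ± 0.08), and C5ar2 was higher (0.42 ± 0.11).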

How the data were processed

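Spin columns were used to isolate the RNA and a stranded kit for mRNA to build the libraries, per the labels' protocols. The build was mm10, per the submitters' processing notes. Aligner, counter and annotation: not given in the sources used here. One table by the authors holds 24972 genes in 45 libraries. Its name speaks of normalized counts, but the deposited values are TPM: library totals lie between 999999.4 and 1000000.5, and longer genes have smaller minimum values (rho -0.63 by Spearman, 1785 genes). Depth is therefore unknown. The 26 entries whose names had turned into dates (0.0441% of TPM) were left out, which left 24946 genes.

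Libraries were scaled by median of ratios over 13216 genes (factors 0.743 to 1.29). The 11194 genes with a scaled mean of at least 0.5 were tested as log2(value + 0.5) with limma 3.58.1 in R 4.3.3. The fit had 12 group means and a variance trend (33 residual and 3.2 prior degrees of freedom), with Benjamini-Hochberg adjustment over all genes. It was tested on simulated data. Fold changes are on that log2 scale, which understates the change of low genes. Diet differences are ethanol minus control averaged over sex labels, and sex differences female minus male averaged over diet labels. Tables and figures used Python 3.11.15, pandas 2.3.3 and matplotlib 3.10.9.

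The 35 members and all gene lists were chosen with earlier results of these data known. Library values are given for members called at 1 stage or more with an absolute log2 difference of at least 1, or called in 1 direction at all 3 stages, and for C3, Hc, C9, Cfb and C4b. Other members are given by estimates or counts. Some genes of the lists outside the 35 are not reported here. Alternatives were the pseudocount, the filter, values as deposited, quantile normalization, no trend, the stage's libraries alone, a replicate block and leaving out each library.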

Additional observations from a re-analysis of the deposited data

Results flagged for a closer look

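Of 144 sets of 4 libraries (16 members in 9 groups), 14 held a library whose gap to the nearest other was wide against the range of the set. Chance alone flags about 1 in 20. Cfd was high in peak ethanol female 1 (15.0 TPM, next 0.108), peak ethanol male 3 (2.77 TPM, next 0.0955) and early ethanol male 3 (1.06 TPM, next 0.153). Late control female 1 was high in Fcna (68.6 TPM, next 35.2) and Cfp (48.9 TPM, next 10.8). Early ethanol male 2 was low in C1s1 (310.3 TPM, next 461) and Hc (162 TPM, next 253). High single libraries were also seen for Fcna in peak control male 4 (39.2 TPM), Colec11 in early control female 4 (73.4 TPM), Cfb in peak ethanol male 2 (1467 TPM), Cfp in peak ethanol female 2 (27.5 TPM), C6 in early ethanol male 1 (15.2 TPM) and C8b in peak ethanol male 3 (110.6 TPM, next 70.1). C4bp was low in late control male 1 (678 TPM, next 766).

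The sex label difference changed from peak for 4 members by a test of the change itself. It changed by 0.78 for Vtn and 0.46 for Cpn1 at early resolution, and by 0.78 for Vtn, 0.59 for Cpn1, -0.82 for Cd55 and 0.26 for Cr1l at late resolution, on the log2 scale after scaling. As deposited, the early change was called for Vtn and not for Cpn1, and without early ethanol female 1 for neither. At late resolution as deposited 1 change was called higher and 10 lower.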

How the results depend on the processing

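Of 62 called differences of single members between labels, 38 kept their direction and call under all alternatives and every left-out library, and 2 changed sign: as deposited, the peak sex label differences of Cpn1 and Cr1l were 0.031 and 0.115 (limma adjusted p = 0.77 and 0.23). Calls lost with the direction kept numbered 16 as deposited, 9 with quantile normalization and 9 with a replicate block. They numbered 6 with the stage's libraries alone, 4 without the filter and 0 with either pseudocount or without the variance trend. The 2 that changed sign as deposited lost their calls too. The replicate block left 9 of 14 late diet calls, 4 higher and 5 lower. It ended the late calls of C1s1 (adjusted p = 0.05), Colec11 (0.15), Hc (0.11), C4bp (0.13) and Cfhr2 (0.26), the peak calls of C8g (0.061) and C5ar1 (0.054) and the early call of Masp2 (0.091). Over 21 pairs of equal replicate number the correlation of deviations from group means ran from -0.389 to 0.246. Over the whole series the numbers do not pair the libraries, but all 4 pairs of peak female libraries (0.116 to 0.207) and 3 of 4 early male pairs (0.142 to 0.246) were above 0.1 and best with their own number. A replicate block among the peak female libraries alone, chosen after seeing the data, called 8 members there, 2 higher and 6 lower, the same 8 as without it. Counts with the block stayed within 1.5 times elsewhere. As deposited, members called were 14 for the peak sex label, 0 for the late sex label, 6 for the sex label change at early and 11 at late resolution. Quantile normalization gave 5 for the peak sex label (C1s1, Cd55, Cd59a and Fcna higher, C4bp lower) and 2 for the late (Vtn and Cpn2). The stage's libraries alone gave 1 for the early sex label and 1 for the early interaction, both Cfd, and 0 for the late sex label; both stages alone gave 5 for the sex label change at early resolution (C6, Cfp, Cpn1 and Vtn higher, Cd59a lower). Leaving out each library gave 19 to 22 members for the diet label at peak, 15 to 18 at early and 11 to 17 at late resolution; 8 to 9, 0 to 2 and 0 to 6 for the sex label; 0 to 0 for each interaction; 0 to 1 (early) and 0 to 2 (late) for the diet label change; and 1 to 5 and 3 to 5 for the sex label change. Depth is unknown, so how far counting error limits C7, C3ar1, C5ar1, Cd55 and Cfd, the lowest members, cannot be given. With the filter at a mean of at least 5, 31 members were tested, and C7, C3ar1, C5ar1 and Cd55 were not.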
